A study of Amaranthus palmeri with 48 samples.

Results

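Leaf RNA of the field weed Palmer amaranth (Amaranthus palmeri) was compared directly between plants given atrazine and plants given chlorsulfuron, 6 h after treatment. The comparison was made on the 12 RNA-seq libraries of batch 2 that came from plants given either herbicide, out of 48 libraries in the series. They were found by the herbicide and batch given in the labels, without use of any measured value. By the titles, numbers 5, 7 and 8 of the resistant and 5, 6 and 7 of the susceptible phenotype each have 1 atrazine and 1 chlorsulfuron library, so every one of the 4 groups held 3 libraries. The phenotype, resistant or susceptible, is called the line here, and libraries are named by line, herbicide and plant number. Batch 2 also held 6 untreated libraries with the same numbers. All plants were raised from seed in a growth chamber and sprayed on a bench sprayer. The doses, and the herbicides that the resistant phenotype refers to, are not stated in the labels.

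Atrazine is a triazine herbicide that occupies the plastoquinone site of the D1 protein of photosystem II and stops photosynthetic electron transport. Light energy that cannot be passed on then damages the leaf through reactive oxygen. Chlorsulfuron is a sulfonylurea that inhibits acetolactate synthase, the enzyme that opens the synthesis of the branched-chain amino acids valine, leucine and isoleucine, and growth stops before the leaf shows damage. The gene models of the deposited table carry identifiers without gene names, so genes are given by identifier and no function is stated for any of them.

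The libraries held between 44999718 and 62829178 counts, and 22740 of the 26353 gene models had a count in at least 1 of the 12. After the filter on low counts, 19272 genes were tested. Counts per gene in leaf tissue cannot tell fewer cells of a type from less RNA per cell. Plant numbers were checked with 50 genes that were on in some plants and off in others in batch 1. Of the 12 libraries, 10 matched the plant of their own number best, at 96% to 100% of the genes decided for it. Both susceptible libraries numbered 7 went against their number. The atrazine library matched plant 6 at 96% and plant 7 at 50%, and the chlorsulfuron library matched plant 6 at 100% and plant 7 at 46.2%. The untreated susceptible library numbered 7 of batch 2, outside the 12, also matched plant 6 at 100% and plant 7 at 46.2%. Susceptible libraries 6 and 7 were also the closest pairs within a herbicide, with a correlation of log2 values of 0.985 after atrazine and 0.984 after chlorsulfuron. By chi-square, their counts were not those of 1 library deposited a second time, which does not bear on whether they came from 1 plant. Their chi-square was 24.5 and 20.7 for each gene on average, against 63.4 to 338.8 for all other pairs within a group. They were kept as separate libraries, under the numbers of their titles, and the main counts, the comparison of the lines and the calls of named genes are also given without them. Nothing in the labels says how libraries of the same number relate, and p-values measure the spread between these libraries only.

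The herbicide separated the 12 libraries along the first principal component of the 2000 most variable genes, which carried 29.2% of the variance. The 6 atrazine libraries lay between 7.24 and 63.1 on it and the 6 chlorsulfuron libraries between -73.5 and -4.06, so the herbicides did not overlap. The lines also lay apart on it after atrazine, with resistant libraries at 57.6 to 63.1 and susceptible libraries at 7.24 to 27.0. After chlorsulfuron resistant libraries lay at -32.8 to -4.06 and susceptible libraries at -73.5 to -33.0. The lines nearly met there, at resistant plant 7 and susceptible plant 5. The second component, with 26.4%, set susceptible atrazine libraries 6 and 7 at the far end from the resistant chlorsulfuron libraries. The third, with 14.4%, set both susceptible libraries numbered 5 apart from the others. Libraries of the same herbicide and line correlated at 0.890 to 0.985 across genes, and libraries of the other herbicide within a line at 0.872 to 0.941. The median SD of a gene over the 3 libraries of a group was 0.298 on the log2 scale in resistant atrazine plants, 0.283 in resistant chlorsulfuron plants, 0.411 in susceptible atrazine plants and 0.313 in susceptible chlorsulfuron plants.

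**Figure D1:**
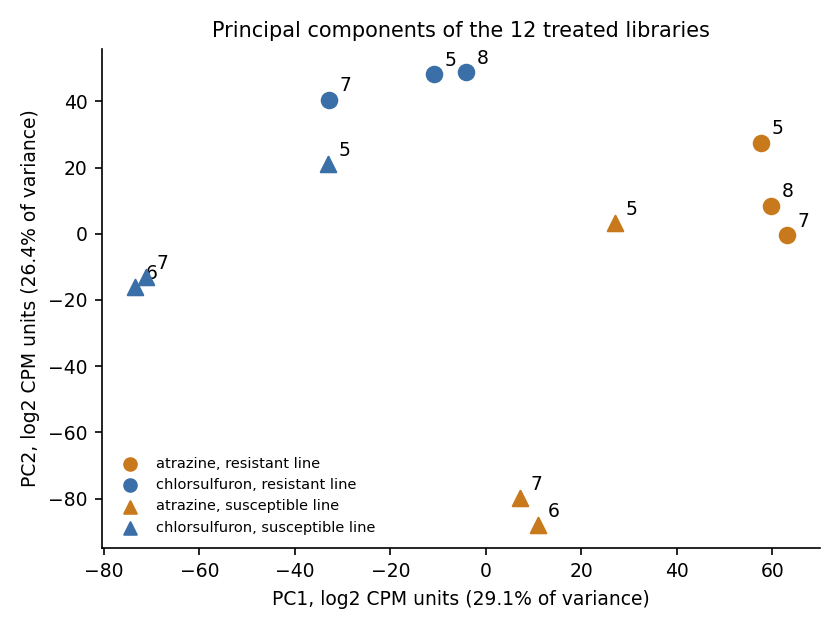
First and second principal components of the 12 treated libraries (log2 CPM of the 2000 most variable genes), 1 point per library with its plant number, orange for atrazine, blue for chlorsulfuron, circles for the resistant and triangles for the susceptible line. All atrazine libraries lie at 7.24 or more on the first component and all chlorsulfuron libraries at -4.06 or less.

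Leaves treated with the 2 herbicides differed in a large share of their genes. Over the mean of both lines, 7544 genes, 39.1% of those tested, passed at an adjusted p under 0.05 (edgeR's quasi-likelihood test with Benjamini-Hochberg adjustment). Of these, 3497 (18.1% of the tested genes) were higher after atrazine and 4047 (21% of the tested genes) were higher after chlorsulfuron. The median fold difference was 1.97 among genes higher after atrazine and 1.94 among genes higher after chlorsulfuron. A difference of at least 2-fold was seen in 1703 genes higher after atrazine and 1891 higher after chlorsulfuron, and one of at least 8-fold in 189 and 140. Levels of all 6 atrazine libraries lay above all 6 chlorsulfuron libraries in 1539 of the 3497 genes, where 8.04% of all tested genes were so. The opposite separation was seen in 1882 of the 4047, where 9.83% of all tested genes were so. Of the 7544 called genes, 6052 (80.2%) went the same way in all 6 same-numbered pairs of libraries, as did 38.4% of all tested genes. The calls were made on these libraries, so that share is a description. None was at 1 CPM (counts scaled to a common library size) or more in all libraries of 1 herbicide and under 0.1 CPM in all of the other, so the called genes differed in level and none by presence on this rule.

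Which direction held more genes depended on the scaling of the libraries. With TMM factors, 46.4% of the called genes were higher after atrazine. With total counts the share was 32.0% (2519 higher after atrazine and 5349 higher after chlorsulfuron), and with the size factors of DESeq2 it was 51.5% (3858 and 3631). The median log2 difference over all tested genes was -0.03 with TMM, -0.20 with total counts and 0.02 with DESeq2 size factors, so the split of directions is read only relative to that median.

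The direction also differed with abundance. Among the 55 tested genes with a mean of 1000 CPM or more, 30 were higher after atrazine and 9 after chlorsulfuron. Between 100 and 1000 CPM, 794 of 2317 genes were higher after atrazine and 586 after chlorsulfuron. Below this the order turned. Between 10 and 100 CPM, 1994 of 9697 genes were higher after atrazine and 2393 after chlorsulfuron, and between 1 and 10 CPM the counts were 554 and 869 of 4898. Under 1 CPM, 125 and 190 of 2305 genes passed. Under scaling by total counts, the genes of 1000 CPM or more still divided 27 to 10, whereas those between 100 and 1000 CPM divided 627 to 739. With DESeq2 size factors the genes between 10 and 100 CPM divided 2231 to 2096. The 500 most abundant genes held 214 that were higher after atrazine and 123 higher after chlorsulfuron, with a median log2 difference of 0.40, and divided 184 to 146 with total counts. Without the 2 susceptible libraries numbered 7, the classes from the highest to the lowest divided 26 to 9, 612 to 445, 1316 to 1566, 308 to 527 and 58 to 88. Of the 500, 131 were at least 2-fold higher after atrazine and 71 at least 2-fold higher after chlorsulfuron.

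**Figure D2:**
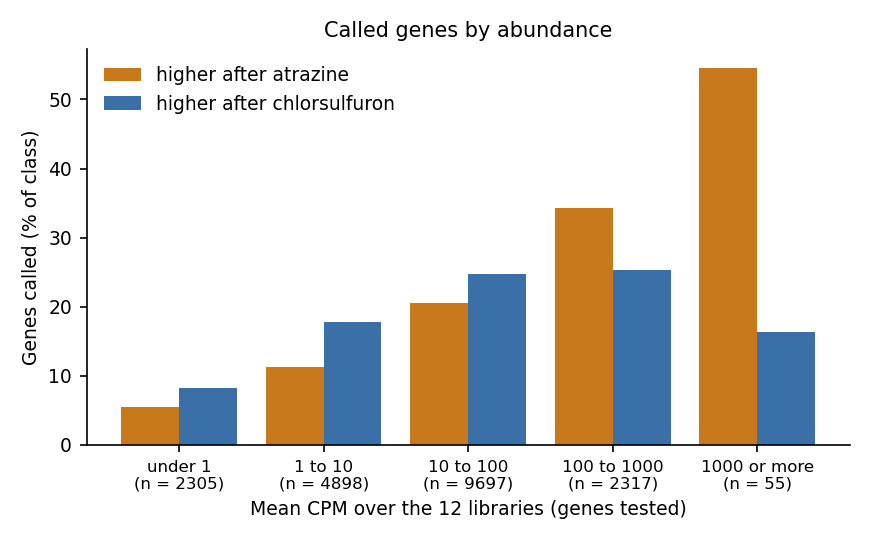
Share of tested genes called higher after atrazine (orange) and higher after chlorsulfuron (blue), in percent of each class of mean CPM over the 12 libraries, with TMM scaling; n is the number of genes tested in the class. Of the 55 genes at 1000 CPM or more, 30 were higher after atrazine and 9 after chlorsulfuron, and from 100 CPM downwards the blue bars are the taller.

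The share of a library's counts that few genes hold needs no scaling factor. The 100 most abundant genes of a library took 15.5%, 20.5% and 19.0% of the counts in resistant atrazine plants 5, 7 and 8, and 12.9%, 14.7% and 15.0% in resistant chlorsulfuron plants. They took 14.5%, 18.4% and 19.1% in susceptible atrazine plants 5, 6 and 7, and 12.1%, 14.2% and 14.2% in susceptible chlorsulfuron plants. Within each line all atrazine libraries lay above all chlorsulfuron libraries, and across the lines susceptible atrazine plant 5 lay within the chlorsulfuron range. The mean was 17.8% ± 2.33 (SD, n = 6) after atrazine and 13.9% ± 1.13 (SD, n = 6) after chlorsulfuron, a difference of 3.97 percentage points (exact permutation test within line, two-sided, p = 0.005, the smallest it can give, adjusted p = 0.01 over 2 measures). Without the libraries numbered 7 the difference was 3.69 percentage points (exact permutation p = 0.0167, the smallest it can give). The number of genes at 1 CPM or more ran from 16350 to 16520 after atrazine and from 16424 to 16904 after chlorsulfuron, and the groups overlapped, but within all 6 same-numbered pairs the number was lower after atrazine, with differences of -384 to -24 genes. The mean of atrazine minus chlorsulfuron libraries was -130.3 genes (exact permutation test within line, two-sided, p = 0.09, adjusted p = 0.09). With labels exchanged within same-numbered pairs the p was 0.03125 (exact permutation test, the smallest it can give). This exchange counts susceptible pairs 6 and 7, whose libraries all matched plant 6, as separate plants. Without the libraries numbered 7 the difference was -137.1 (exact permutation within line, p = 0.367), and the exchange within pairs was not run without them. With total counts the difference was -280.5 genes (p = 0.015, exact permutation test within line).

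Among called genes of at least 50 CPM in the higher group, with all libraries of the herbicides apart, AmaPaChr08Ag136970 had the largest log2 difference towards atrazine. Its level was 1438, 1711 and 2164 CPM in resistant atrazine plants 5, 7 and 8 and 2555, 1859 and 1695 CPM in susceptible atrazine plants 5, 6 and 7. In chlorsulfuron plants it was 21.1, 21.5 and 30.4 CPM in the resistant and 22.4, 16.0 and 25.2 CPM in the susceptible line. Every atrazine library was far above every chlorsulfuron library in both lines, where the rule asked only that they be apart. The log2 difference was 6.36 ± 0.24 (SE, 82.0-fold, adjusted p = 2.03e-07, edgeR). AmaPaChr09Ag154310 followed the same pattern at a lower level. It stood at 307, 370 and 353 CPM in resistant atrazine plants and 573, 203 and 211 CPM in susceptible atrazine plants, with the highest level in susceptible plant 5. After chlorsulfuron it stood at 4.58, 4.14 and 5.51 CPM in the resistant and 5.41, 2.74 and 5.02 CPM in the susceptible line. Its log2 difference was 6.18 ± 0.36 (SE, 72.5-fold, adjusted p = 2.70e-06, edgeR).

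Neither gene was shown to differ between chlorsulfuron and untreated plants. The log2 difference from untreated plants was 0.30 ± 0.33 for AmaPaChr08Ag136970 (adjusted p = 0.471, edgeR) and 0.30 ± 0.38 for AmaPaChr09Ag154310 (adjusted p = 0.544, edgeR). The low levels of both genes in the 12 batch 2 libraries without atrazine moved together. They amounted to 0.332% to 2.39% of the atrazine mean for AmaPaChr08Ag136970 and 0.347% to 2.85% for AmaPaChr09Ag154310. Untreated resistant plant 7 was highest for both, and untreated susceptible plant 6 was lowest for both. In untreated plants of batch 1 the 2 genes reached at most 0.385 and 0.846 CPM, and in those of batch 3 at most 0.371 and 0.216 CPM. Whether reads of the atrazine libraries reached the other libraries of the batch was not tested, so the low levels, and the size of the fold that they set, are uncertain.

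By the same rule, the largest differences in the opposite direction were in AmaPaChr15Ag235100 and AmaPaChr01Ag022720. AmaPaChr15Ag235100 stood at 335, 653 and 757 CPM in resistant chlorsulfuron plants 5, 7 and 8 and at 157, 1199.7 and 1102 CPM in susceptible chlorsulfuron plants 5, 6 and 7. In atrazine plants it stood at 8.34, 2.70 and 18.6 CPM in the resistant and 61.9, 20.2 and 36.1 CPM in the susceptible line. Susceptible plant 5 was the highest of the atrazine libraries and the lowest of the chlorsulfuron libraries. That the herbicides did not overlap was asked by the rule. The log2 difference was -5.15 ± 0.66 (SE, 35.4-fold higher after chlorsulfuron, adjusted p = 0.000204, edgeR). Untreated plants held 3.51, 4.68 and 3.37 CPM in the resistant and 0.0641, 2.34 and 2.71 CPM in the susceptible line. The gene was therefore above untreated after both herbicides, by 2.91 ± 0.67 on the log2 scale after atrazine (adjusted p = 0.00201, edgeR) and by 8.01 ± 0.84 after chlorsulfuron (adjusted p = 6.00e-06, edgeR). AmaPaChr01Ag022720 stood at 786, 1798 and 665 CPM in resistant and 651, 1532 and 1191 CPM in susceptible chlorsulfuron plants. After atrazine it stood at 26.6, 29.7 and 36.7 CPM in the resistant and 129, 23.5 and 34.9 CPM in the susceptible line, where plant 5 was again the highest. Its log2 difference was -4.66 ± 0.50 (SE, 25.3-fold higher after chlorsulfuron, adjusted p = 8.81e-05, edgeR). Against untreated plants the log2 difference was 1.08 ± 0.43 after atrazine (adjusted p = 0.0447, edgeR) and 5.70 ± 0.51 after chlorsulfuron (adjusted p = 2.36e-06, edgeR). The former missed the threshold with the plant number as a block (adjusted p = 0.0551) and without the susceptible libraries numbered 7 (adjusted p = 0.0626).

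**Figure D3:**
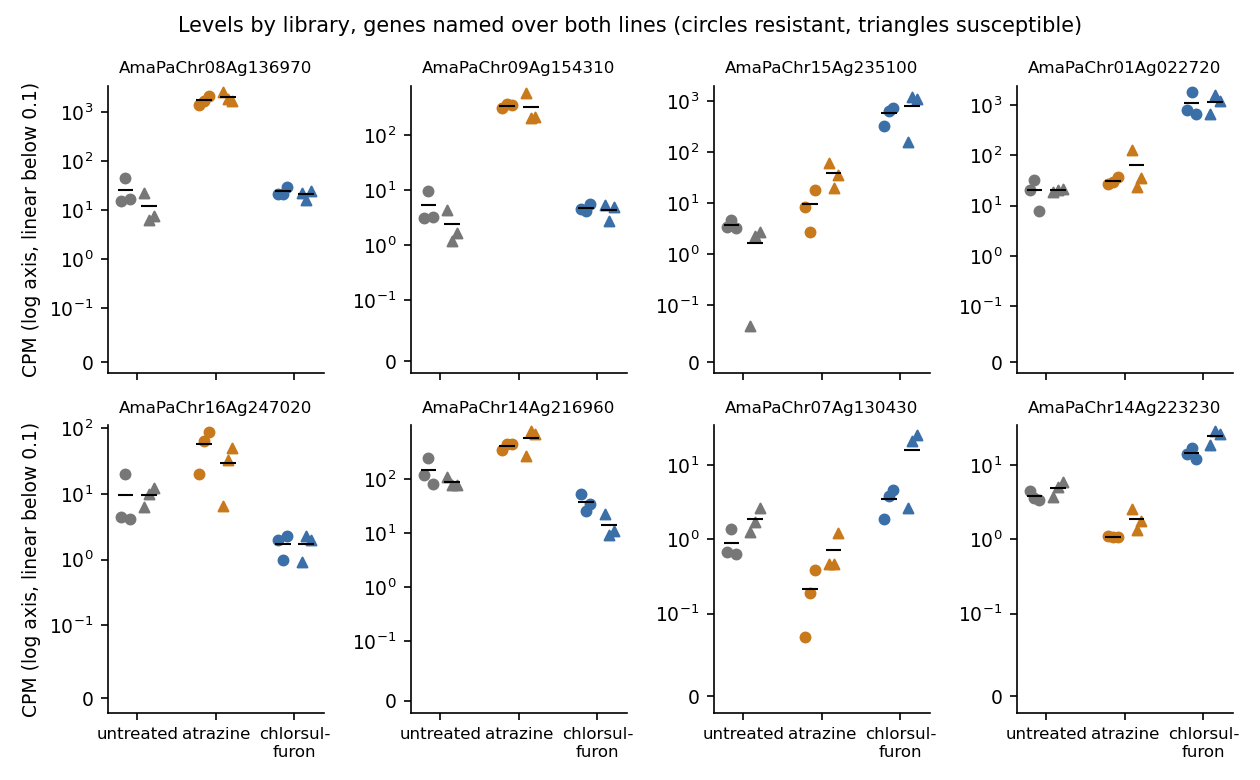
Levels in CPM (log axis, linear below 0.1) of 8 genes in the 18 libraries of batch 2, 1 point per library, grey for untreated, orange for atrazine, blue for chlorsulfuron, circles for the resistant and triangles for the susceptible line, with a bar at each group mean. The upper row holds the genes of at least 50 CPM with the largest differences between the herbicides, all libraries apart, and the lower row genes on opposite sides of the untreated level, such as AmaPaChr14Ag223230, whose atrazine libraries reach at most 2.58 CPM and whose chlorsulfuron libraries start at 12.2 CPM.

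The difference between the herbicides was seen in each line taken alone. In the resistant line 4001 genes, 20.8% of those tested, passed. Of these 1808 (9.38% of the tested genes) were higher after atrazine and 2193 (11.4% of the tested genes) higher after chlorsulfuron. In the susceptible line 4751 genes, 24.7% of those tested, passed, with 2296 (11.9%) higher after atrazine and 2455 (12.7%) higher after chlorsulfuron. Fitted without the other line, resistant plants gave 2293 genes higher after atrazine and 2562 higher after chlorsulfuron, and susceptible plants gave 1409 and 1079. Single libraries moved the counts of the joint fit. The resistant count was 2168 without atrazine plant 7, 2485 without atrazine plant 8, 2533 without chlorsulfuron plant 5 and 2058 without chlorsulfuron plant 7. The susceptible count was 7449 without atrazine plant 5, 2476 and 2652 without atrazine plants 6 and 7, 2451 and 2417 without chlorsulfuron plants 6 and 7, and 982 without both libraries numbered 7. Without atrazine plant 5 the susceptible atrazine group held only libraries 6 and 7, which both matched plant 6. The count over the mean of both lines was 4960 without both susceptible libraries numbered 7.

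Genes called in 1 line mostly went the same way in the other. Of the 1808 genes higher after atrazine in the resistant line, 1375 (76.1%) were also called higher in the susceptible line, 1 was called lower, and 98.0% had the same sign, against 79.7% of all tested genes. Their median log2 difference was 1.25 in the resistant and 1.18 in the susceptible line. Of the 2193 genes higher after chlorsulfuron in the resistant line, 1559 (71.1%) were also called in the susceptible line, and the medians were -1.16 and -1.03. Taken from the susceptible side, the shared genes were 59.9% of the 2296 and 63.5% of the 2455. Across all 19272 genes the log2 differences of both lines correlated at r = 0.72, and at r = 0.86 over the 12069 genes of 10 CPM or more. Without the libraries numbered 7, 528 (40.7%) of 1299 and 313 (21.7%) of 1442 genes called in the resistant line were also called in the susceptible line, and 98.7% and 98.8% had the same sign. From the susceptible side these were 85.7% of 616 and 85.5% of 366 genes. The lines share no library, but genes of 1 library share its depth and are not independent. Both tests also used 1 estimate of spread per gene from the joint fit. The calls of the lines are therefore not independent, and their overlap is a description.

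The size of the difference varied between plants. When genes were called in resistant plants alone, the 2293 that were higher after atrazine had a median log2 difference of 0.80 in susceptible pair 5, 1.25 in pair 6 and 1.22 in pair 7. The 2562 that were higher after chlorsulfuron had medians of -0.61, -1.22 and -1.10 in those pairs. All tested genes had medians between -0.10 and -0.05 there. Genes called in susceptible plants alone gave medians of 0.97, 1.45 and 1.04 in resistant pairs 5, 7 and 8 for the 1409 higher after atrazine, and -1.13, -1.60 and -1.04 for the 1079 higher after chlorsulfuron. Without number 7 the susceptible plants alone, 2 libraries a group, called 0 genes (edgeR, 2036 at an unadjusted p under 0.05), so these lists could not be formed without them. Pair 5 was thus the weakest susceptible pair and pair 7 the strongest resistant pair. Over all tested genes, the difference between the libraries of a pair was at least 2-fold in 4693, 6871 and 4712 genes of resistant pairs 5, 7 and 8, and in 5025, 7700 and 7270 genes of susceptible pairs 5, 6 and 7.

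**Figure D4:**
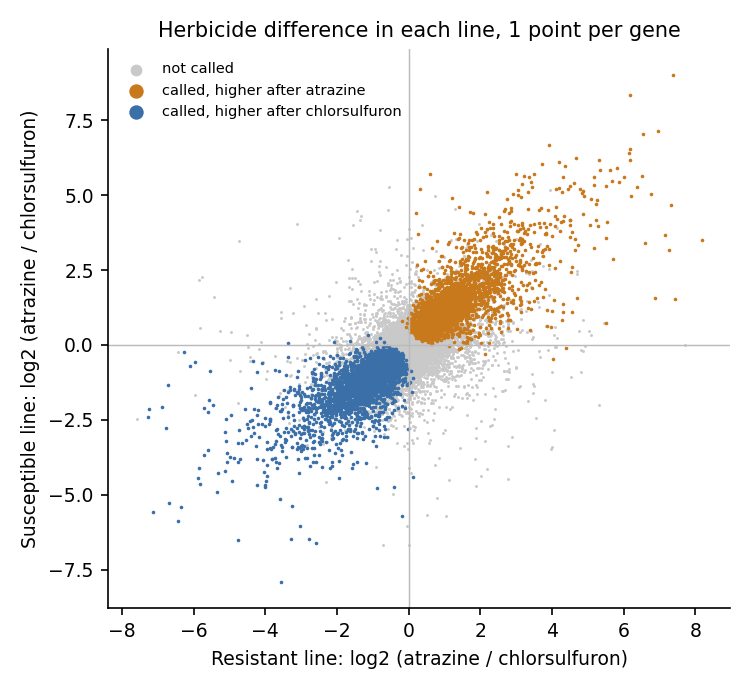
Log2 difference between atrazine and chlorsulfuron in the resistant line (horizontal axis) and in the susceptible line (vertical axis), 1 point per tested gene, orange and blue for genes called over the mean of both lines and grey for the others. The called genes lie along the diagonal, and r across the 19272 genes is 0.72.

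No gene passed the test of a difference between the lines in their herbicide difference (edgeR, 0 of 19272 at an adjusted p under 0.05, 875 at an unadjusted p under 0.05), and none without the libraries numbered 7 (425 at an unadjusted p under 0.05). DESeq2 called 61 genes, 26 of them with a more positive difference in the resistant line. Without susceptible atrazine plant 5, which left only libraries 6 and 7 in that group, both matching plant 6, edgeR called 347 genes. Of these, 239 had a more positive difference in the resistant line. A gene called in 1 line and not in the other is therefore not shown to differ between them.

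Within a line, genes were picked among called genes of at least 5 CPM in the higher group with the 3 libraries apart. Lack of overlap in that line is therefore part of the rule. In the resistant line, 2 genes had the largest differences towards atrazine. AmaPaChr13Ag201780 stood at 1.36, 32.7 and 93.2 CPM in resistant atrazine plants 5, 7 and 8 and at 0.443, 0.457 and 0.501 CPM after chlorsulfuron. Plant 5 was only a little above the chlorsulfuron plants, and the groups did not overlap (log2 difference 6.50 ± 1.16 SE, adjusted p = 0.00417, edgeR). In the susceptible line the gene stood at 38.9, 28.1 and 29.7 CPM after atrazine and at 0.736, 0.778 and 0.349 CPM after chlorsulfuron, and the log2 difference was 5.63 ± 1.11 (SE, adjusted p = 0.00562, edgeR), which missed the threshold without the libraries numbered 7 (adjusted p = 0.0682). AmaPaChr09Ag153920 stood at 2.40, 1.89 and 10.8 CPM in resistant atrazine plants and at 0.111, 0 and 0.0716 CPM after chlorsulfuron. Its log2 difference of 6.36 ± 2.00 (SE, adjusted p = 0.0458, edgeR) lost its call with the plant number as a block (adjusted p = 0.0659). In susceptible plants it reached 11.6 CPM in atrazine plant 5 and stood at 0.144 and 0.200 CPM in atrazine plants 6 and 7, within the chlorsulfuron range of 0 to 0.209 CPM. The resistant call of AmaPaChr09Ag153920 was also lost without any 1 of the 6 resistant libraries and without susceptible chlorsulfuron plant 6 or 7, or both susceptible libraries numbered 7 (adjusted p = 0.0511). The log2 difference of AmaPaChr13Ag201780 was 5.19 without resistant atrazine plant 8, 7.14 without plant 5 and 5.42 with the plant number as a block, and it passed in each case.

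AmaPaChr04Ag079320 was among the genes with the largest differences towards chlorsulfuron in both lines. It stood at 10.9, 31.1 and 5.48 CPM in resistant and 3.20, 28.6 and 13.3 CPM in susceptible chlorsulfuron plants. All atrazine libraries were low, at 0.107, 0.0946 and 0.357 CPM in the resistant and 0.692, 0.180 and 0.200 CPM in the susceptible line. The herbicides did not overlap across the lines either, where the rule asked for this within each line only. The log2 difference was -6.35 ± 1.10 in the resistant (SE, adjusted p = 0.00359, edgeR) and -5.40 ± 1.03 in the susceptible line (SE, adjusted p = 0.0048, edgeR), and the latter missed the threshold without both susceptible libraries numbered 7 (adjusted p = 0.0613). AmaPaChr15Ag235100, described above, was the other resistant gene of this direction, at a log2 difference of -5.87 ± 0.96 (SE, adjusted p = 0.00283, edgeR). Without resistant atrazine plant 8 these resistant values were -7.23 for AmaPaChr04Ag079320 and -6.70 for AmaPaChr15Ag235100, and without resistant chlorsulfuron plant 7 the former was -5.34. In the susceptible line AmaPaChr04Ag079320 was at -6.37 without atrazine plant 5 and at -4.51 without chlorsulfuron plant 6.

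In the susceptible line AmaPaChr16Ag248240 had the largest difference towards atrazine by the same rule, which again asked for 3 libraries apart. It stood at 0.472, 26.6 and 8.36 CPM in atrazine plants 5, 6 and 7 and at 0.0640, 0.0311 and 0 CPM after chlorsulfuron (log2 difference 8.33 ± 1.56 SE, adjusted p = 0.0043, edgeR). Plant 5 was far below plants 6 and 7 and, as the rule asked, above the chlorsulfuron plants. Without the libraries numbered 7 the call only just passed (adjusted p = 0.0498, edgeR). In the resistant line the gene stood at 10.2, 24.6 and 3.11 CPM after atrazine and at 0.185, 0.122 and 0.215 CPM after chlorsulfuron. The log2 difference there was 6.18 ± 1.36 (SE, adjusted p = 0.0102, edgeR), also without overlap. AmaPaChr08Ag141960 stood at 9.73, 22.5 and 10.5 CPM in susceptible atrazine plants and at 0.288, 0 and 0.105 CPM after chlorsulfuron, without overlap (log2 difference 6.66 ± 1.02 SE, adjusted p = 0.0017, edgeR). Resistant atrazine plants held less of it, at 2.61, 2.65 and 3.53 CPM, and the log2 difference there was 3.92 ± 0.91 (SE, adjusted p = 0.0132, edgeR). The test of the difference between the lines was not passed. AmaPaChr14Ag223570 stood at 25.8, 20.9 and 16.9 CPM in susceptible chlorsulfuron plants and at 1.73, 0.144 and 0.560 CPM in atrazine plants (log2 difference -4.74 ± 1.34 SE, adjusted p = 0.0268, edgeR). In the resistant line its levels overlapped, at 0.591, 3.23 and 0.644 CPM after chlorsulfuron and 3.04, 0.142 and 0.143 CPM after atrazine (log2 difference -0.40 ± 1.17 SE, adjusted p = 0.852, edgeR). The line difference of 4.34 ± 1.71 did not pass, and the susceptible call was lost without either library numbered 6 or either numbered 7 (adjusted p = 0.164 without both numbered 7). Without susceptible atrazine plant 5 its log2 difference was -6.01. AmaPaChr16Ag248240 was at 6.92 without atrazine plant 6, at 9.29 without chlorsulfuron plant 5 and at 7.64 with the plant number as a block, and AmaPaChr08Ag141960 was at 8.06 without chlorsulfuron plant 5, all of them called.

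Set beside the untreated plants of the batch, each list lay on both sides of the untreated level. The values against untreated plants come from 1 fit of the 18 libraries, both comparisons share the untreated libraries, and the lists were chosen on the same treated libraries, so the values are a description. Of the 3497 genes higher after atrazine, 2136 (61.1%) were called above untreated after atrazine, where 27.1% of all genes were, and 288 (8.24%) below, where 26.7% were. After chlorsulfuron, 469 (13.4%) of them were above untreated, where 25.4% of all genes were, and 1482 (42.4%) below, where 25.5% were. Their median log2 difference from untreated was 0.67 after atrazine and -0.33 after chlorsulfuron. Of the 4047 genes higher after chlorsulfuron, 1923 (47.5%) were above and 614 (15.2%) below untreated after chlorsulfuron, and 363 (8.97%) were above and 2126 (52.5%) below untreated after atrazine. Their medians were 0.39 after chlorsulfuron and -0.48 after atrazine. Without the 3 libraries numbered 7 in the fit, 1918 genes of the first list were above untreated after atrazine and 1209 below it after chlorsulfuron, and 1534 of the second were above it after chlorsulfuron and 1829 below it after atrazine.

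**Figure D5:**
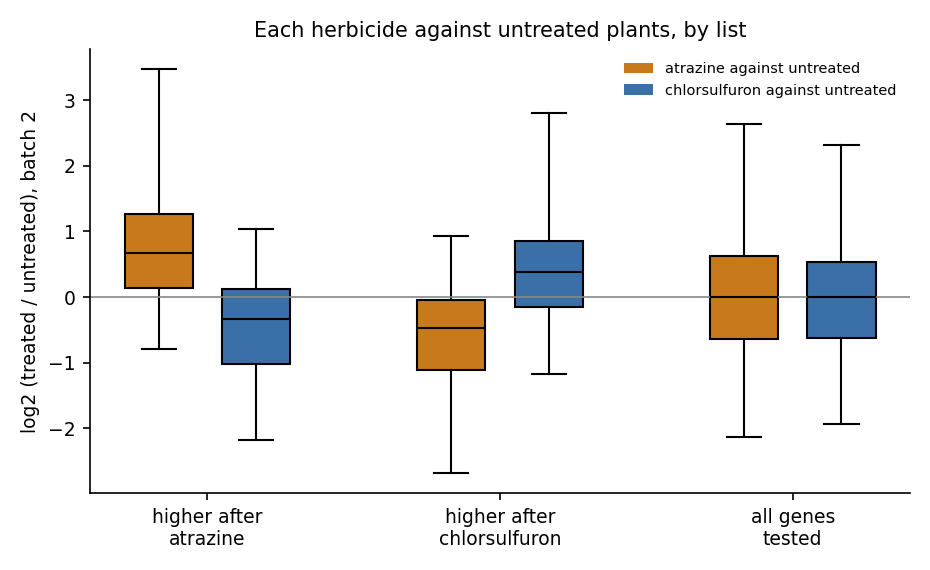
Log2 difference from untreated plants of batch 2 after atrazine (orange) and after chlorsulfuron (blue), for the genes called higher after atrazine, those called higher after chlorsulfuron and all genes tested. Boxes span the middle 50% of genes with a line at the median and whiskers span the 5th to the 95th percentile; the first list has medians of 0.67 and -0.33 and the second of -0.48 and 0.39, and all genes lie around 0.

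Some genes lay above untreated after 1 herbicide and below it after the other. AmaPaChr14Ag216960 was the most abundant of the 4 that were picked for this. It stood at 347, 437 and 451 CPM in resistant and 266, 786 and 680 CPM in susceptible atrazine plants, and at 53.4, 25.2 and 34.8 CPM in resistant and 22.7, 9.21 and 10.8 CPM in susceptible chlorsulfuron plants. Untreated plants lay between, at 116, 246 and 79.2 CPM in the resistant and 108, 76.3 and 77.1 CPM in the susceptible line, and the 3 treatments did not overlap. The log2 difference was 4.35 ± 0.36 between the herbicides (SE, adjusted p = 2.03e-05, edgeR), 2.05 ± 0.34 between atrazine and untreated plants and -2.35 ± 0.34 between chlorsulfuron and untreated plants. AmaPaChr16Ag247020 stood at 20.3, 64.03 and 88.3 CPM in resistant and 6.45, 32.6 and 50.3 CPM in susceptible atrazine plants. After chlorsulfuron it stood at 1.96, 0.975 and 2.26 CPM in the resistant and 0.928, 2.30 and 2.02 CPM in the susceptible line. The herbicides did not overlap, whereas the untreated plants, at 4.15 to 20.1 CPM, reached into the atrazine range (log2 difference between the herbicides 4.53 ± 0.56 SE, adjusted p = 0.000179, edgeR). Against untreated plants it was 2.05 ± 0.53 after atrazine and -2.53 ± 0.55 after chlorsulfuron on the log2 scale.

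AmaPaChr14Ag223230 lay below untreated after atrazine and above it after chlorsulfuron. It stood at 14.2, 17.0 and 12.2 CPM in resistant and 18.6, 29.0 and 26.1 CPM in susceptible chlorsulfuron plants. In atrazine plants it stood at 1.11, 1.09 and 1.07 CPM in the resistant and 2.58, 1.33 and 1.76 CPM in the susceptible line. Untreated plants held 3.37 to 5.92 CPM, between both herbicides and without overlap with either. On the log2 scale the difference was -3.74 ± 0.21 between the herbicides (SE, adjusted p = 2.26e-06, edgeR), -1.64 ± 0.19 between atrazine and untreated plants and 2.06 ± 0.19 between chlorsulfuron and untreated plants. AmaPaChr07Ag130430 stood at 1.88, 3.87 and 4.62 CPM in resistant and 2.66, 20.9 and 25.1 CPM in susceptible chlorsulfuron plants, against 0.0716, 0.189 and 0.393 CPM in resistant and 0.472, 0.468 and 1.24 CPM in susceptible atrazine plants. The herbicides did not overlap, and the chlorsulfuron level of susceptible plants 6 and 7 stood above the rest. Untreated plants, at 0.636 to 2.64 CPM, overlapped both the atrazine and the chlorsulfuron range. On the log2 scale it was -4.25 ± 0.63 (SE, adjusted p = 0.000481, edgeR), with -1.74 ± 0.53 after atrazine and 2.47 ± 0.52 after chlorsulfuron against untreated plants.

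The other 3 herbicides of the series were read for the same lists, in batches that share no library with the 12. 2,4-D is an auxin mimic, lactofen blocks protoporphyrinogen oxidase, and mesotrione blocks hydroxyphenylpyruvate dioxygenase. After 2,4-D, 17.1% of the measured genes higher after atrazine were called above untreated and 7.48% below, where 11.2% and 12.2% of all genes were. Of the genes higher after chlorsulfuron, 12.3% were above and 24.2% below untreated after 2,4-D. After lactofen both lists were near all genes, with 31.3% above and 33.4% below for the first list and 32.4% above and 29.2% below for the second, where 31.5% and 30% of all genes were. After mesotrione 0 genes were called above untreated and 1 below (0.00518% of 19288). The medians after mesotrione were -0.13 for the genes higher after atrazine and 0.07 for those higher after chlorsulfuron, against -0.02 for all genes. Across genes, the difference between atrazine and chlorsulfuron correlated with the response to 2,4-D at r = 0.01, to lactofen at r = 0.01 and to mesotrione at r = -0.25 (over 18760 genes for 2,4-D and mesotrione and 18956 for lactofen).

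The named genes differed in what other herbicides did to them. AmaPaChr08Ag136970 ran from 0 to 68.6 CPM after lactofen (median 2.20, n = 6) and reached at most 0.254 CPM after 2,4-D and 0.172 CPM after mesotrione. Untreated plants of batch 3, the batch of lactofen, reached at most 0.371 CPM. AmaPaChr09Ag154310 ran from 1.10 to 68.7 CPM after lactofen, where those untreated plants reached at most 0.216 CPM. AmaPaChr15Ag235100 was high after lactofen, at 332 to 1614 CPM (median 505, n = 6), and after 2,4-D, at 52.9 to 415 CPM (median 111, n = 6), where untreated plants of those batches reached at most 8.88 and 3.27 CPM. AmaPaChr13Ag201780 reached at most 1.78 CPM after lactofen, 0.723 CPM after 2,4-D and 3.06 CPM after mesotrione, against 1.36 to 93.2 CPM after atrazine. Its untreated plants reached at most 4.19 CPM in batch 1, 3.81 CPM in batch 2 and 1.61 CPM in batch 3, each above the lowest atrazine library. AmaPaChr14Ag216960 ran from 8.82 to 41.3 CPM after lactofen, where untreated plants of batch 3 ran from 37.5 to 129.8 CPM, and from 56.2 to 108 CPM after 2,4-D, where those of batch 1 ran from 40.1 to 94.97 CPM. These levels were set on a common scale over 48 libraries from 3 batches, and the batches themselves were not compared. Against untreated plants of batch 3, the log2 difference after lactofen was 7.98 for AmaPaChr09Ag154310, 7.37 for AmaPaChr08Ag136970 and 6.61 for AmaPaChr08Ag141960. Among genes higher after chlorsulfuron it was 7.14 for AmaPaChr15Ag235100, 6.96 for AmaPaChr04Ag079320, 6.47 for AmaPaChr14Ag223570 and 3.475 for AmaPaChr01Ag022720. The other named genes measured there lay between -3.07 (AmaPaChr16Ag247020) and 2.10 (AmaPaChr13Ag201780). These lactofen values are given without a spread or a test, and single libraries differed widely. AmaPaChr08Ag136970 stood at 68.6, 0 and 0.249 CPM in susceptible lactofen plants 5, 3 and 7. It stood at 4.16, 28.4 and 0.0947 CPM in resistant plants 1, 4 and 8. AmaPaChr08Ag141960 stood at 12.8, 0.239 and 0.847 CPM in these susceptible and 4.88, 4.99 and 1.89 CPM in these resistant plants. AmaPaChr04Ag079320 ran from 0.185 to 24.0 CPM.

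The identifiers carry chromosome labels. The share called ran from 34.4% to 42.1% over the 18 labels. Among the 114 tested genes with the label 0, 34.2% were higher after atrazine and 7.89% higher after chlorsulfuron, where all other labels gave 15.4% to 20.3% and 18.6% to 23.7%. The 4 tRNA models that were tested were all called higher after atrazine, but their counts were the same in every library and give 1 measurement. In all, 101 tested models had the same counts as another in every library of the series, and 32 of them (31.7%) were called, beside 39.1% of all tested genes.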

How the data were processed

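The deposited file holds whole-number read counts per gene model, made by the authors without scaling between libraries. Per the labels' protocols, libraries were stranded, polyA-selected and sequenced from both ends. Trimmomatic, FastQC, STAR and DESeq2 appear in the submitters' processing notes. The sources used here do not give the genome build, annotation or strand setting, so genes that overlap or have near-identical copies are uncertain. Of the counts above 0, 98.22% were even, so a fragment usually adds 2 counts. A line that names no gene held 0 counts.

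The deposited counts were tested with edgeR 4.0.16 in R 4.3.3 (quasi-likelihood F test, robust, TMM factors of 0.892 to 1.164, default filter on low counts by group). A single fit of the 12 libraries had 4 group means, 8 residual degrees of freedom and a square root of the common dispersion of 0.441. Genes with a Benjamini-Hochberg adjusted p under 0.05 were called. SE is the absolute log2 difference divided by the square root of F. CPM of named genes use TMM factors over 48 libraries, and abundance classes those over 12. The comparison with untreated plants used the 18 libraries of batch 2, where 19686 genes were tested. Each other herbicide was compared with the untreated plants of its own batch in the same way, and a list's percentages are over its members measured there. Alternatives included DESeq2 1.42.0. The scripts were tested on simulated data.

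Same-numbered atrazine and chlorsulfuron libraries deviated together from their group means (r = 0.45, 0.51 and 0.48 in the resistant and 0.31, 0.22 and 0.21 in the susceptible line), so the numbers in the titles were taken to pair the libraries. Different numbers reached 0.33 in the susceptible line.

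Genes were named as the 2 called genes with the largest log2 difference in each direction. For both lines together this asked for 50 CPM in the higher group and all 6 libraries apart, and within a line for 5 CPM and 3 libraries apart. For genes on opposite sides of untreated, the smaller of both differences from untreated ranked them, at 5 CPM. The members, lists and rules were chosen with earlier results of these data known. Lists by gene product and cell type markers were not applied, because no annotation was used.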

Additional observations from a re-analysis of the deposited data

How the results depend on the processing

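No named gene and no library measure changed sign under any alternative run. With the plant number as a replicate block, 7588 genes were called over the mean of both lines (6744 of them also called without it), 3491 in the resistant and 4047 in the susceptible line and 0 for the line difference. With susceptible numbers 6 and 7 given 1 shared block, the replicate block gave 8739, 5045, 5750 and 0. Their libraries still entered this fit as separate observations, so it cannot show what counting them as 1 plant would give. Of 70 values of the 14 named genes (5 comparisons each), the block changed 2 calls, AmaPaChr09Ag153920 in the resistant line and AmaPaChr01Ag022720 between atrazine and untreated plants. It also lowered the p of the number of detected genes, whose difference stayed at -130.3. Asking for a 2-fold difference as well gave 3594, 2524 and 2971 genes. Without the 2 susceptible libraries numbered 7 the counts were 4960 for the mean of both lines and 982 for the susceptible line. Leaving them out, and the untreated library of that number where it entered, changed 8 of the 70 calls. Besides those given above they were AmaPaChr14Ag223570 over both lines (adjusted p = 0.116), AmaPaChr15Ag235100 (0.0819) and AmaPaChr16Ag247020 (0.0664), both in the susceptible line. These values of named genes, and the line overlaps and abundance classes without number 7, were chosen after seeing the data. The susceptible line fitted alone gave 2488. The line difference gave 3 genes in a fit of 48 libraries and 61 with DESeq2. Genes detected differed by -280.5 with total counts. Leaving out 1 library at a time gave 6179 to 9149 genes over the mean of both lines, 2058 to 5605 in the resistant line, 2417 to 7449 in the susceptible line and 0 to 347 for the line difference. It gave differences of -179.1 to -62.33 detected genes and of 3.427 to 4.689 percentage points for the share of the 100 most abundant genes. The causes were not tested.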
